A study of Homo sapiens with 18 samples.

Results

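Transcript levels were compared between HEK293 cells taken 120 min and 60 min into a mock treatment, that is, without flagellin. HEK293 is an established line from human embryonic kidney, and all cells of the study carried a murine TLR5 transgene, whose product detects bacterial flagellin. Mock cells made up 6 of the 18 arrays, 3 at 60 min and 3 at 120 min, with biological replicates lettered A, B and C. The other 12 arrays came from cells given flagellin of E. coli Nissle (EcN) or of Salmonella Typhimurium SL1344 (ST) for 60 or 120 min, 3 arrays each. All groups also shared a culture up to passage 7 in SILAC media, whose lysine and arginine are heavy, medium or light. The sources used here do not give the promoter of the transgene, the clonality of the line, the liquid given as mock, the amino acid label of each array or the day of each culture. No array from before the mock treatment was analysed here, so the start of the time course is not known. For the 6 ST arrays the description field names mock while the title, source and treatment fields name ST, and the titles were followed.

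The array's table held 53617 transcript clusters, of which 23871 had exactly 1 gene symbol. Of these, 17117 lay above the median of their own array on at least 3 of 18 arrays, and the other 6754 are not described. Where several rows stood for a gene the one with the highest mean was used, which left 16111 genes. Values are log2 levels after RMA, a background correction and normalization for probe arrays. A difference is the mean log2 level at 120 min minus that at 60 min, given with the standard error (SE) of the limma fit. A gene was called, and is said to have risen or fallen, where its adjusted p was under 0.05. The p-values measure the spread between these samples. The titles call the letters biological replicates, but the sources used here do not say whether these were separate cultures.

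Some background helps in reading the groups of genes. Immediate-early genes such as EGR1 and FOS encode transcription factors and are switched on within minutes by serum, growth factors, stress or handling, with no need for new protein, and their transcripts decay fast. NF-kB is the best known outlet of TLR5, and it induces its own inhibitors and a set of chemokines, while interferon-stimulated genes encode antiviral proteins. SREBP transcription factors raise the genes of sterol synthesis, and MondoA and FOXO factors raise TXNIP, ARRDC4 and PDK4 with the cell's glucose and growth factor state.

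The 3 arrays labelled mock 120 min differed among themselves, and this touches every result below. Replicate A had the NF-kB genes high. CXCL8 (transcript cluster 16967771), a neutrophil chemokine, had log2 levels of 2.16, 2.70 and 2.35 on the mock 60 min arrays A, B and C, and of 7.53, 2.46 and 2.26 on the mock 120 min arrays A, B and C. NFKBIA (transcript cluster 16791991), the NF-kB inhibitor that NF-kB induces, stood at 8.82, 8.62 and 8.59 and then at 10.83, 8.39 and 8.22 in the same order. In both, replicate A at 120 min lay above the other 5 mock arrays, and B and C at 120 min lay within or below the range of the 60 min arrays.

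Over all genes tested, however, replicate A at 120 min was the mock 120 min array closest to the mock 60 min arrays. Likeness was measured as the standard deviation (SD) over genes of the log2 difference between a pair of arrays, which is smaller for arrays that are more alike. For mock 120 min A it averaged 0.311 to the 3 mock 60 min arrays and 0.406 to mock 120 min B and C. Mock 120 min C was closest to an array of another label, EcN 60 min A, at an SD of 0.252 (Pearson r across genes 0.9941, given as a description, since genes are not replicates), which was the closest of all pairs among the 18 arrays. Mock 120 min B was closest to mock 120 min C, at 0.326, with EcN 60 min A next at 0.328. The median SD within a group over genes was 0.194 for mock 120 min and 0.142 for its replicates B and C alone, against 0.131 to 0.143 in the other 5 groups. On the flagellin arrays CXCL8 was high on the 4 lettered C, at 5.62, 7.47, 7.92 and 8.76, and lay between 2.35 and 2.90 on the 8 lettered A and B, against 2.16 to 2.70 on the other 5 mock arrays. On these values the labels of mock 120 min A and C are in doubt: an exchange of samples cannot be told apart here from a difference between cultures, and every value with or without A rests on the labels as given. The groups of the labels were kept, and what set these arrays apart was not tested.

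**Figure D1:**
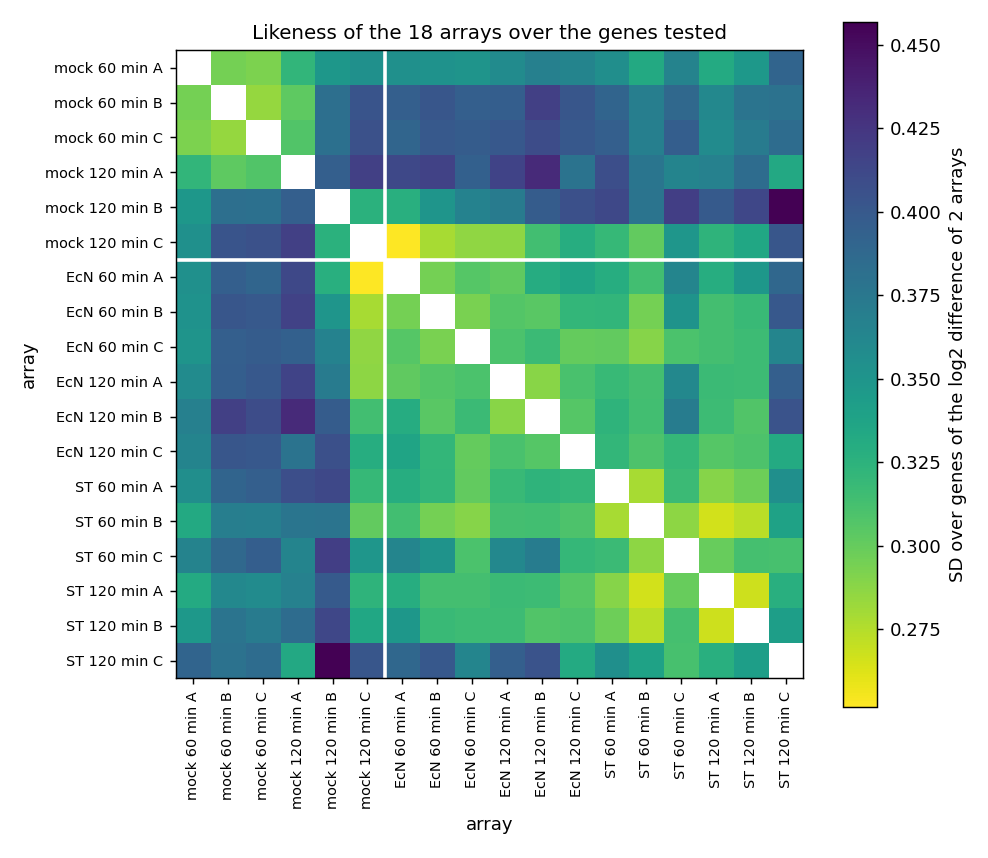
Colour gives the SD over the 16111 genes of the log2 difference between the array of the row and the array of the column, with the 6 mock arrays above and left of the white lines. Mock 120 min A is close to the mock 60 min arrays (mean 0.311), and the brightest cell is that of mock 120 min C with EcN 60 min A (0.252).

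The 3 against 3 comparison asks which transcripts differ between the later and the earlier mock cells. No gene was called (0 of 16111, 0%), and the smallest adjusted p was 0.126. At an unadjusted p under 0.05, limma put 962 genes (5.97%) higher at 120 min and 988 (6.13%) lower. The groups did not overlap for 906 genes higher (5.62%) and 1134 lower (7.04%) at 120 min. Differences ran from -1.28 to 2.22, and an exact permutation test of 3 against 3 for a single gene cannot go below p = 0.1.

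The genes with the smallest p-values stood higher on all 3 arrays of 120 min, replicate A included. MYB (transcript cluster 17012804), which encodes a transcription factor of progenitor cells, had levels of 4.25, 4.24 and 4.28 at 60 min and of 4.95, 5.10 and 4.86 at 120 min. All 3 later arrays stood above the 3 earlier ones and above the highest flagellin array, at 4.73. The difference was 0.71 ± 0.12 (SE, n = 3 and 3), with an adjusted p of 0.126 in limma. SIK1, a kinase induced by cyclic AMP and itself a brake on CREB signalling, had 5.16, 5.40 and 5.34 and then 5.86, 6.08 and 5.85, a difference of 0.63 ± 0.12. NPPC, the precursor of C-type natriuretic peptide, had 9.43, 9.10 and 8.97 and then 9.81, 9.94 and 9.77, a difference of 0.68 ± 0.13. Neither SIK1 nor NPPC overlapped between the times, and replicate A at 120 min lay with B and C in both.

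The pseudogene CATSPER2P1 had the smallest p of all, with 5.16, 4.68 and 5.08 at 60 min, 5.92, 6.58 and 6.31 at 120 min, and a difference of 1.3 ± 0.21. It is a near copy of CATSPER2, so the source of its signal is uncertain. LOXL3, a lysyl oxidase that crosslinks collagen, differed by 1.04 ± 0.20, and the ephrin EFNA2 by 0.91 ± 0.18. RNF122, a ubiquitin ligase, differed by 0.84 ± 0.17, MCTP2 by 0.57 ± 0.11, the hydrolase BPHL by 0.51 ± 0.10 and the centriole protein OFD1 by 0.49 ± 0.10. For these genes the groups did not overlap and the adjusted p was 0.126, so none passed.

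In the other direction the smallest p belonged to PCDH7, a protocadherin, with levels of 7.55, 7.49 and 7.49 at 60 min and of 7.17, 6.92 and 6.96 at 120 min, a difference of -0.49 ± 0.09. ETV1, an ETS transcription factor, had 4.86, 4.83 and 4.85 and then 4.23, 4.16 and 4.01, a difference of -0.72 ± 0.14. The 3 later arrays lay below the 3 earlier ones in both. P2RY2, a receptor for extracellular ATP and UTP, differed by -0.50 ± 0.10, CHAC2, which cleaves glutathione, by -0.51 ± 0.10, and the zinc finger gene ZNF33A by -0.75 ± 0.15. IFT70B of the cilium differed by -0.70 ± 0.14, ZNG1F by -0.66 ± 0.14, DESI2 by -0.45 ± 0.10 and UMAD1 by -0.38 ± 0.08, and the divergent transcript ZNF594-DT by -0.74 ± 0.16. Their groups did not overlap either, and their adjusted p was 0.126.

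The same comparison was made with mock 120 min A left out, as its NF-kB genes are high. This left 2 arrays against 3, in a fit over 17 arrays. It called 979 genes (6.08%), 567 of which rose (3.52%) and 412 of which fell (2.56%). Of these, 392 rose (2.43%) and 129 fell (0.801%) by at least 1.5-fold, and 77 rose (0.478%) and 13 fell (0.0807%) by at least 2-fold. The array was chosen by its values in these data, and the p-values do not account for that choice. With a further array left out as well, the count ran from 220 to 924, with 392 genes without mock 60 min B, 394 without mock 60 min C and 220 without mock 120 min C. A fit on the 5 mock arrays alone called 65. Of the 51 named genes called without A, 8 were also called with each of the other 5 mock arrays left out in turn, namely AARS1, ARRDC4, CATSPER2P1, CD24, INSIG1, IRF9, KCNJ4 and UTP20. Of the 51, 40 lost the call without mock 120 min C, 25 without mock 120 min B, 26 without mock 60 min B, 23 without mock 60 min C and 11 without mock 60 min A. Without mock 120 min C these included EGR1, EGR3, KLF6, IFIT3, IFI44L, TXNIP, GALR2 and SMAD7, with highest adjusted p over the 5 fits of 0.066 for EGR1, 0.258 for EGR3, 0.0701 for IFIT3 and 0.0571 for IFI44L in limma.

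For most of these genes replicate A lay at or past the 60 min levels. Of the 567 that rose without it, A lay within the range of the 3 mock 60 min arrays in 280, beyond that range on the lower side in 134, between the times in 141, and at or above the lower of B and C in 12. Its median distance from the 60 min mean was 0.00 over these genes, against 0.69 for the mean of B and C. Of the 412 that fell, A lay within the 60 min range in 171, above it in 69, between the times in 153, and at or below the higher of B and C in 19. With all 6 arrays the 979 genes kept the sign of their difference, 765 had an unadjusted p under 0.05, and 325 did not overlap between the groups.

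**Figure D2:**
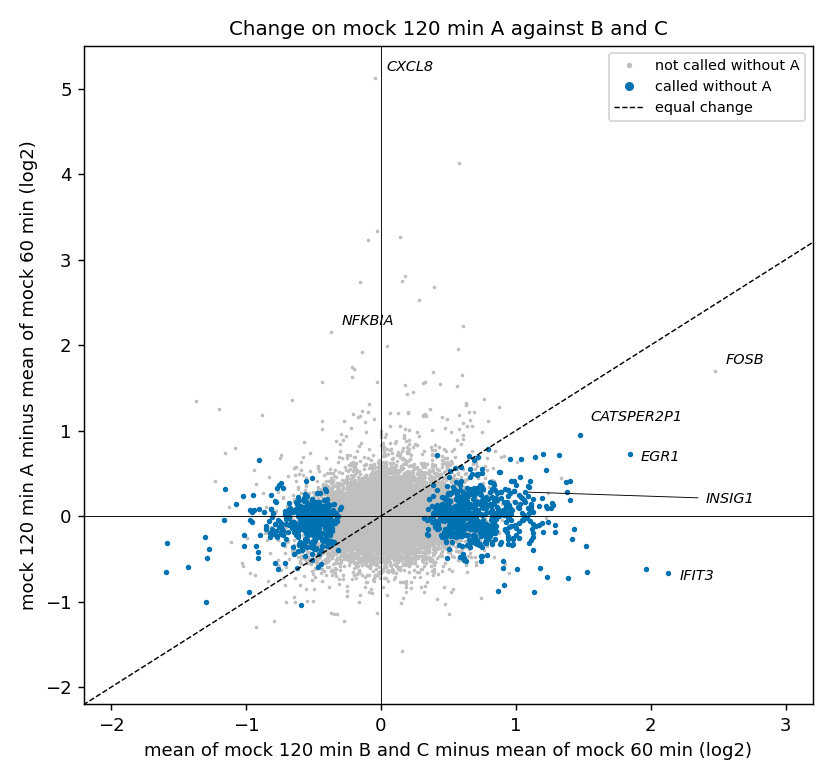
Each point is a gene, with the mean of mock 120 min B and C minus the mean of mock 60 min on the x axis and mock 120 min A minus the mean of mock 60 min on the y axis, both in log2 units. Blue genes were called without A and spread around 0 on the y axis, with CATSPER2P1 and EGR1 above it and IFIT3 below it. CXCL8 and NFKBIA stand high on the y axis alone.

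For many called genes the mock 60 min arrays were the ones apart from the flagellin arrays. Of the 567 genes that rose without A, 159 (28.0%) had all 3 mock 60 min arrays below all 12 flagellin arrays, against 4.34% of all genes tested. Of the 412 that fell, 217 (52.7%) had all 3 above the 12, against 5.90% of all genes tested. Mock 120 min B and C both lay within the flagellin range in 221 of the genes that rose (39.0%) and in 184 of those that fell (44.7%), and beyond it on the far side in 138 (24.3%) and 72 (17.5%). Mock 120 min A lay below all flagellin arrays in 260 of the genes that rose (45.9%) and above them in 228 of those that fell (55.3%). These shares describe genes chosen by the mock arrays themselves, so they carry no test.

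Of the 27 immediate-early genes in the list, 25 were measured, most of them transcription factors, though ARC and ZFP36 are not. Of the 25, 12 stood higher on all 3 arrays of 120 min than on any of 60 min, with none lower (5.62% of all genes tested were higher in this way). In the 3 against 3 comparison none was called, and 8 had an unadjusted p under 0.05 in limma, all higher (5.97% of all genes tested were higher in this way). The median difference was 0.43 (-0.01 over all genes tested). Without A, 3 of the 25 rose, EGR1, EGR3 and KLF6, none fell (12% called, against 6.08% of all genes tested, 3.52% higher), and the median was 0.47. The promoters of the 2 members with the largest 3 against 3 differences are shown to compare them for the serum response element core, the CArG box, in the RefSeq window of 250 bases before and 50 after the gene start (GRCh38.p14, plus strand), EGR1 at chr5:138465229-138465528 and FOSB at chr19:45467746-45468045, with capitals marking a CArG box.
EGR1: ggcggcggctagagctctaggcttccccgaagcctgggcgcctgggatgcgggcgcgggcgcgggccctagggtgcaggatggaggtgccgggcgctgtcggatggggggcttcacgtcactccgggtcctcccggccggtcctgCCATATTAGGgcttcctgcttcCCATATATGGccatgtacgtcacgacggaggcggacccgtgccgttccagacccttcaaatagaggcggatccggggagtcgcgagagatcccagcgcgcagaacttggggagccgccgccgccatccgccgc
FOSB: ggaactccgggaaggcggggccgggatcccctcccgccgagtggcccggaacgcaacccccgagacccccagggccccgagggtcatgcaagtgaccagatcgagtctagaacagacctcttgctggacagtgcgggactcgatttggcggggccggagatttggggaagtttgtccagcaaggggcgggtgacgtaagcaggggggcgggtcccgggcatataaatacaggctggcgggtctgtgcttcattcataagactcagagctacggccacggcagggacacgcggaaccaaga
EGR1 holds 2 boxes, with first bases at -105 and -83 from the gene start, and FOSB holds none in these letters. The pattern of the CArG box is its own reverse complement, so only the strand as given was searched. The box occurs in 454 of 35116 promoter windows of this length (1.29%), and in 2 of the 21 list members found in the RefSeq table. A match is a description of letters and no evidence of binding.

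EGR1 (transcript cluster 16989736), the zinc finger factor whose promoter is printed above, had levels of 9.27, 9.04 and 8.89 at 60 min and of 9.80, 10.99 and 10.84 at 120 min. Replicate A lay between the 60 min arrays and the other 120 min arrays, and the groups did not overlap. The difference was 1.47 ± 0.37 (2.78-fold, adjusted p = 0.195 in limma) with all arrays. Without A, EGR1 rose by 1.85 ± 0.37 (3.60-fold, adjusted p = 0.0129). Its relative EGR3 had 5.25, 4.62 and 4.52 and then 5.51, 6.53 and 5.70, a difference of 1.12 ± 0.33 with all arrays (adjusted p = 0.238). EGR3 rose by 1.32 ± 0.36 without A (adjusted p = 0.0428 in limma).

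FOSB (transcript cluster 16863287), a partner of JUN in the AP-1 dimer, had the largest difference of any gene. Its levels were 5.96, 5.11 and 4.84 at 60 min and 7.0, 7.90 and 7.66 at 120 min. The groups did not overlap, and A at 60 min was the highest of the earlier arrays as A at 120 min was the lowest of the later ones. The difference of 2.22 ± 0.71 (4.65-fold) did not pass (adjusted p = 0.272 in limma), nor did that of 2.48 ± 0.81 without A (adjusted p = 0.0845). A second row for FOSB gave 1.56 and 1.60. FOS had 5.72, 5.21 and 5.14 and then 5.99, 6.42 and 6.31, a difference of 0.88 ± 0.38 that did not pass with or without A (1.01 ± 0.43, adjusted p = 0.184).

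KLF6, a zinc finger factor, had 6.95, 6.98 and 6.87 and then 7.21, 7.55 and 7.94, and rose by 0.81 ± 0.22 without A (adjusted p = 0.0431 in limma). The call of KLF6 was lost whichever mock 60 min array was left out as well. ATF3, a stress-induced repressor, was highest on replicate A, with 5.36, 5.47 and 5.40 and then 6.78, 6.05 and 6.30, and its difference of 0.97 ± 0.34 did not pass. Of the 14 MAP kinase feedback inhibitors measured, 0 were called with or without A, and the medians were 0.06 and 0.09. Among them DUSP8, a phosphatase of JNK and p38, had 6.17, 5.92 and 6.08 and then 7.33, 7.16 and 6.70, a difference of 1.01 ± 0.26 with an adjusted p of 0.195. The YAP and SRF targets of the cytoskeleton had 0 of 16 called in both fits, with medians of -0.01 and -0.02. Their member CCN2, a matricellular protein, differed by -0.71 ± 0.38, with levels of 8.47, 9.53 and 9.56 and then 9.29, 7.82 and 8.31 that overlapped.

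**Figure D3:**
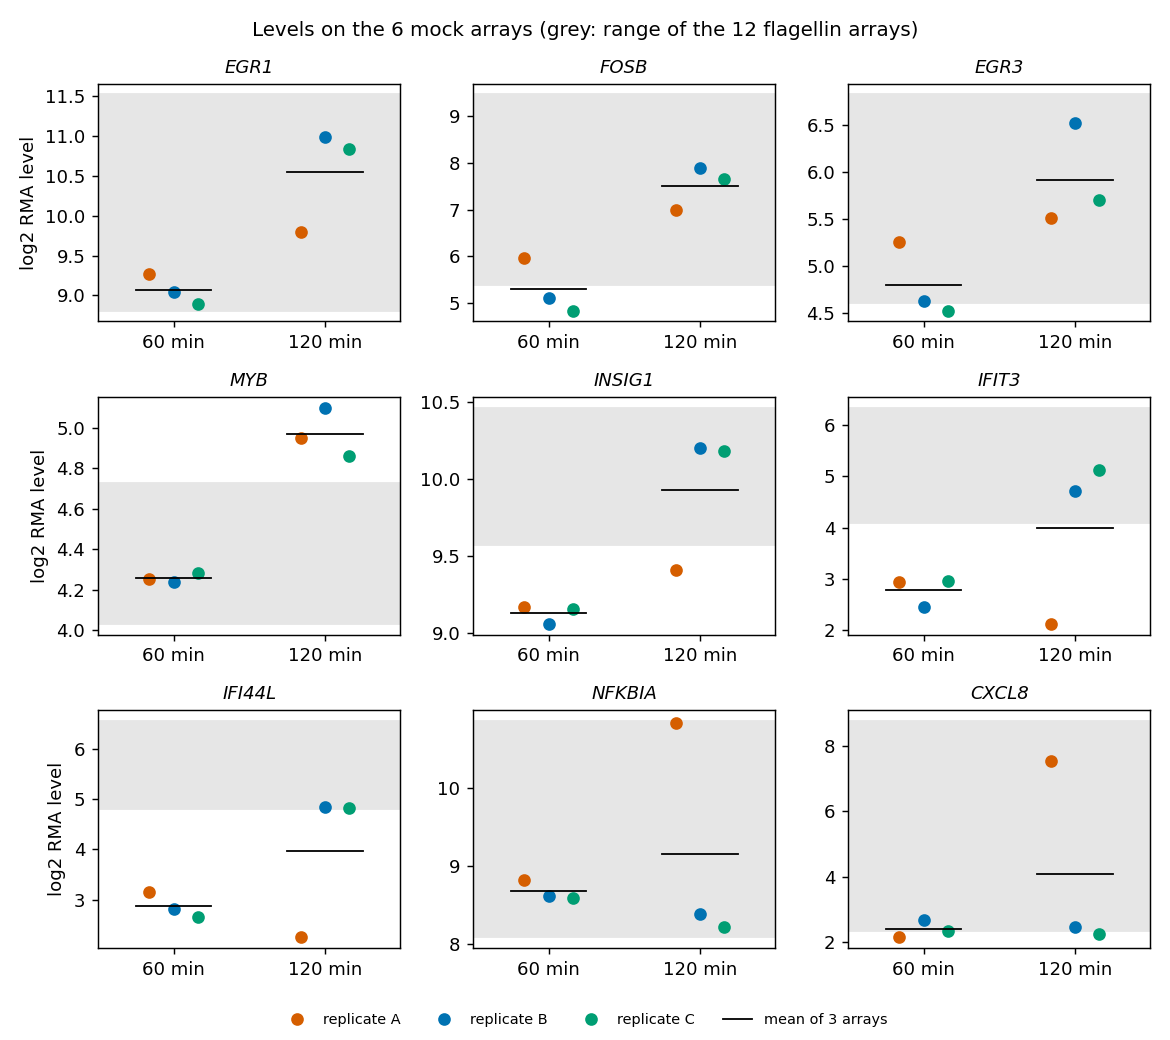
Log2 RMA level of 9 genes on each mock array at 60 and 120 min, coloured by replicate, with a bar at the mean of 3 arrays and the range of the 12 flagellin arrays in grey. EGR1, FOSB, EGR3, MYB and INSIG1 do not overlap between the times, IFIT3 and IFI44L are high on mock 120 min B and C alone, and NFKBIA and CXCL8 on mock 120 min A alone.

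TNFAIP3, TNF, CXCL10, IER3 and SDC4 stood higher on replicate A at 120 min than on any other mock array. Without A their differences were -0.15, -0.10, 0.58, 0.18 and 0.57 in that order, and none was called. TNFAIP3, a deubiquitinase that limits NF-kB, had 6.55, 6.52 and 6.54 at 60 min and 9.27, 6.50 and 6.27 at 120 min, and TNF had 3.0, 3.04 and 2.65 and then 6.13, 2.57 and 3.02. The chemokine CXCL10 stood at 6.65 on A at 120 min and between 2.35 and 3.11 on the other 5 mock arrays. IER3, an apoptosis regulator, stood at 9.80 against 6.92 to 7.16, and SDC4, a syndecan, at 9.73 against 7.68 to 8.38. IER3 had 10 rows, and with all arrays the row used gave a difference of 1.06 and the others 0.39 to 0.89. Of the 19 NF-kB subunits and feedback inhibitors measured, 0 were called in either fit, and the median difference was 0.01 with all arrays and -0.15 without A. Of the 14 other NF-kB targets 0 were called, with medians of 0.35 and 0.13. The 15 cytokines and chemokines had medians of 0.55 and 0.28. All 3 arrays of 120 min stood above all 3 of 60 min in 5 of the 14 and in 6 of the 15 (5.62% of all genes tested). They stood below them in 1 of the 14 and 0 of the 15 (7.04%). Of the 15 cytokines and chemokines, IL12A was the only 1 called without A (6.67%, near the 6.08% of all genes tested). It rose by 0.60 ± 0.15 (adjusted p = 0.027 in limma), with levels of 2.44, 2.72 and 2.76 and then 2.71, 3.34 and 3.15, so that A overlapped the 60 min arrays.

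In the pathway that leads from TLR5 to NF-kB, 17 of 19 members were measured, and 1 rose and 1 fell without A (11.8% called, against 6.08% of all genes tested). Without A, PELI1, a ubiquitin ligase that acts on IRAK1, rose by 0.49 ± 0.11 (adjusted p = 0.0209), and IRAK1, the kinase below MYD88, fell by 0.41 ± 0.11 (adjusted p = 0.04 in limma). PELI1 had 6.90, 6.92 and 7.08 and then 6.98, 7.31 and 7.59, and IRAK1 had 8.76, 8.86 and 8.81 and then 8.84, 8.54 and 8.25. In both, A at 120 min lay within the range of the 60 min arrays. The adaptor TIRAP did not overlap, with 5.22, 4.95 and 5.16 and then 4.69, 4.66 and 4.65, but its difference of -0.44 ± 0.16 did not pass. TLR5 stood between 3.32 and 4.18 on the 6 mock arrays with overlapping groups. The array is designed on human genes, so this row is no measure of the murine transgene.

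The interferon-stimulated genes IFIT3 and IFI44L were high on mock 120 min B and C and not on A. IFIT3 (transcript cluster 16707184), which encodes an antiviral adaptor protein, had levels of 2.94, 2.45 and 2.96 at 60 min and of 2.12, 4.72 and 5.12 at 120 min. Replicate A was the lowest of the 6, while B and C lay in the range of the 12 flagellin arrays, 4.10 to 6.34. The difference was 1.20 ± 0.57 with all arrays (adjusted p = 0.419 in limma). Without A, IFIT3 rose by 2.13 ± 0.39 (4.38-fold, adjusted p = 0.0076). IFI44L had 3.15, 2.81 and 2.65 and then 2.25, 4.84 and 4.83, with flagellin arrays from 4.80 to 6.55, and rose by 1.96 ± 0.36 without A (3.90-fold, adjusted p = 0.00783). Mock 60 min arrays and mock 120 min A lay below every flagellin array for both genes.

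Of the 24 interferon-stimulated genes measured, 4 rose without A and none fell (16.7% called, against 6.08% of all genes tested), and the list's median was 0.50 (0.00 over all genes tested). Besides IFIT3 and IFI44L these were IFI6, a mitochondrial antiviral protein, by 1.07 ± 0.27, and IRF9, a transcription factor of the interferon response, by 0.96 ± 0.16. IFI6 had 8.69, 8.73 and 9.07 and then 8.80, 10.04 and 9.76, so A at 120 min again lay with the earlier arrays. The call of IFI6 was lost whichever mock 60 min array was left out as well. A second row for IRF9 gave 0.36 without A. With all arrays 0 were called, and 2 of 24 had an unadjusted p under 0.05 in limma, both higher, against 5.97% of all genes tested. The median was 0.26, with 22 of 24 above 0. ISG15, a ubiquitin-like antiviral protein, did not overlap, with 3.17, 3.19 and 3.79 and then 3.94, 4.15 and 4.28, and did not pass in either fit (0.74 ± 0.41, adjusted p = 0.475; 0.83 ± 0.47 without A, adjusted p = 0.321).

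Of the 16 sterol genes measured, 2 rose without A and none fell (12.5% called, against 6.08% of all genes tested). INSIG1 (transcript cluster 17053892), the sterol sensor that retains SREBP in the endoplasmic reticulum, had levels of 9.17, 9.06 and 9.16 at 60 min and of 9.41, 10.20 and 10.18 at 120 min. The groups did not overlap, with A next to the earlier arrays and B and C far above them. INSIG1 rose by 1.07 ± 0.12 without A (2.09-fold, adjusted p = 0.00361 in limma), and the difference was 0.80 ± 0.17 with all arrays (adjusted p = 0.126). IDI1, which isomerizes isopentenyl diphosphate, had 6.09, 6.10 and 5.91 and then 6.17, 6.46 and 6.79, and rose by 0.60 ± 0.14 without A (adjusted p = 0.0203). HMGCS1, which makes the precursor of mevalonate, did not overlap either, with 7.70, 7.39 and 7.41 and then 7.83, 7.92 and 7.73, but did not pass (0.32 ± 0.13). The list's median was 0.13 with all arrays and 0.21 without A.

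Among genes that answer to glucose and FOXO, 5 of 20 rose without A and none fell (25% called, against 6.08% of all genes tested). ARRDC4, an arrestin that limits glucose uptake, had 8.07, 7.76 and 7.76 and then 8.18, 8.84 and 8.73, and rose by 0.92 ± 0.16 (adjusted p = 0.00656 in limma). Its paralog TXNIP had 3.59, 3.77 and 3.67 and then 3.45, 4.20 and 4.18, and rose by 0.51 ± 0.10 (adjusted p = 0.0117), with A the lowest of the 6. PDK4, which holds back pyruvate oxidation, rose by 0.80 ± 0.13, the transcription factor KLF9 by 0.59 ± 0.13, and YPEL3 by 0.69 ± 0.18. Of these 5, ARRDC4, KLF9 and YPEL3 did not overlap with A included, while TXNIP and PDK4 did. With all arrays none passed, and the medians were 0.14 and, without A, 0.20.

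In the list of the unfolded protein response and ATF4 targets, 4 of 19 members rose without A and 1 fell (26.3% called, against 6.08% of all genes tested). CHAC1, an ATF4 target that degrades glutathione, had 6.36, 6.29 and 6.37 and then 6.75, 7.51 and 7.38, and rose by 1.10 ± 0.31 (2.15-fold, adjusted p = 0.0454 in limma). PHGDH, which opens serine synthesis, had 8.09, 8.09 and 8.08 and then 8.21, 8.45 and 8.61, and rose by 0.44 ± 0.10. Neither overlapped with A included. CEBPB rose by 0.55 ± 0.15 and the lipoprotein receptor VLDLR by 0.74 ± 0.19. From another list, that of amino acid transporters and tRNA synthetases, AARS1 rose by 0.57 ± 0.10. It was the only 1 called of 21 there (4.76%, below the 6.08% of all genes tested). HSPA5, the main chaperone of the endoplasmic reticulum, had 10.73, 10.72 and 10.70 and then 10.67, 10.26 and 10.44, and fell by 0.37 ± 0.10 (adjusted p = 0.0476). CHAC1, CEBPB and HSPA5 lost the call whichever mock 60 min array was left out as well. VLDLR and PHGDH lost it without mock 60 min B and without mock 60 min C, so most calls of this list depend on single arrays.

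**Figure D4:**
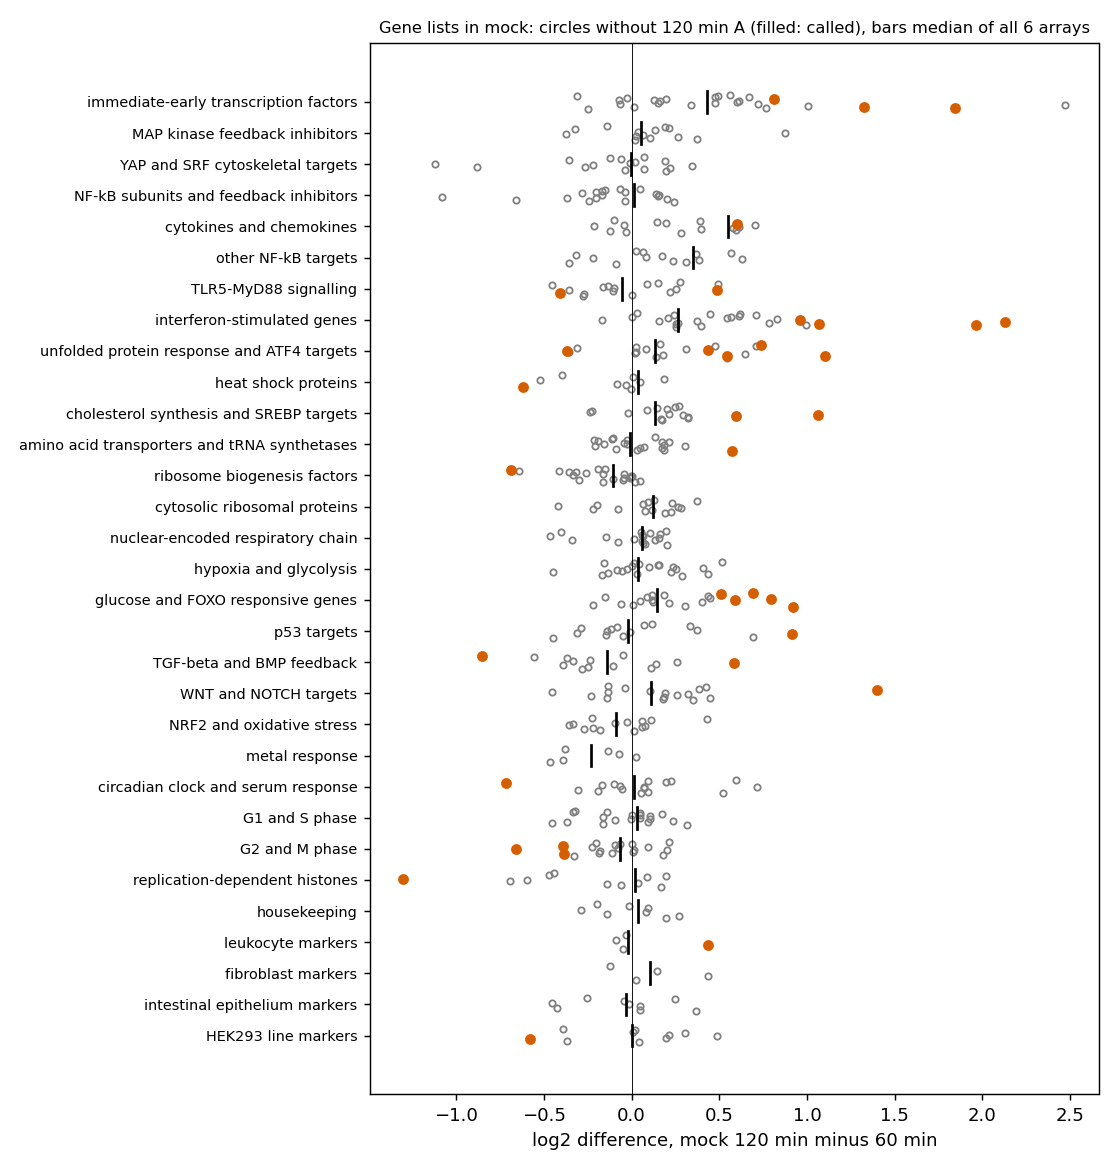
Each circle is a gene of a list, placed by its log2 difference between mock 120 and 60 min without mock 120 min A, and filled where it was called. Black bars mark the list's median with all 6 arrays, which is 0.43 for the immediate-early genes, 0.55 for cytokines and chemokines, 0.35 for other NF-kB targets, 0.26 for interferon-stimulated genes and -0.23 for the metal response, and lies between -0.14 and 0.14 for the other lists.

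Several single genes rose more than 2-fold without A. CD24, a surface glycoprotein, had 2.98, 2.61 and 3.07 and then 2.61, 4.64 and 3.97, and rose by 1.42 ± 0.23 (2.67-fold, adjusted p = 0.00478 in limma). GALNT12, which starts O-linked glycosylation, had 5.26, 5.14 and 4.69 and then 4.68, 6.35 and 6.74, and rose by 1.52 ± 0.27. In CD24 and GALNT12, A was at or below the lowest of the earlier arrays. The potassium channel gene KCNJ4 rose by 1.43 ± 0.22, with A again among the earlier arrays, and the antisense transcript AGBL5-AS1 by 1.53 ± 0.39. NOTUM, a WNT deacylase and a feedback target of WNT signalling, rose by 1.40 ± 0.34 and was the only 1 called of 17 WNT and NOTCH targets (5.88%, near the 6.08% of all genes tested). NOTUM had 4.07, 3.39 and 4.30 and then 4.33, 5.38 and 5.26, and ZNF467 had 3.51, 3.52 and 3.07 and then 3.56, 5.21 and 4.33 and rose by 1.40 ± 0.27. Neither overlapped with A included, though A lay next to the earlier arrays in both. GDF15, a stress cytokine, rose by 0.92 ± 0.22 and was the only 1 called of 15 p53 targets (6.67%, near the 6.08% of all genes tested). LTBP2, of the list of TGF-beta and BMP feedback, rose by 0.59 ± 0.16, a call lost whichever mock 60 min array was left out as well.

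GALR2 (transcript cluster 16838017), a galanin receptor, had levels of 6.63, 6.45 and 6.57 at 60 min and of 6.07, 5.59 and 4.94 at 120 min. The groups did not overlap, with A between the other arrays. GALR2 fell by 1.29 ± 0.21 without A (2.45-fold, adjusted p = 0.00478 in limma), and the difference was -1.02 ± 0.22 with all arrays (adjusted p = 0.126). SMAD7, the feedback inhibitor of TGF-beta receptors, had 7.89, 8.33 and 8.23 and then 8.03, 7.39 and 7.20, and fell by 0.85 ± 0.20 (adjusted p = 0.0221). Its relative SMAD6 had 6.63, 6.75 and 6.66 and then 5.82, 6.05 and 6.20, a difference of -0.66 ± 0.16 with all arrays that did not pass (adjusted p = 0.185), and its lowest array was A. PER2, a repressor of the circadian clock, fell by 0.71 ± 0.14, and was the only 1 called of 17 clock and serum response genes (5.88%, near the 6.08% of all genes tested).

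The chromatin remodeller subunit INO80D had 7.57, 7.97 and 8.03 and then 8.18, 6.81 and 6.59, with A the highest of the 6, and fell by 1.16 ± 0.23 without A. UTP20, a component of the small-subunit processome, fell by 0.69 ± 0.11, the only 1 called of 22 ribosome biogenesis factors (4.55%, against 6.08% of all genes tested), whose median was -0.11 with all arrays and -0.16 without A. The co-chaperone DNAJA1 fell by 0.62 ± 0.16, the only 1 called of 9 heat shock genes (11.1%, against 6.08% of all genes tested). DNAJA1 lost the call without mock 60 min B and without mock 60 min C. Of the 19 genes of G2 and M phase, 3 fell without A and none rose (15.8% called, against 6.08% of all genes tested, 2.56% lower). These were the kinetochore motor CENPE by 0.66 ± 0.13, the checkpoint kinase BUB1 by 0.39 ± 0.11 and the cytokinesis motor KIF20A by 0.39 ± 0.10. BUB1 and KIF20A lost the call without mock 60 min B and without mock 60 min C. None of the 19 genes of G1 and S phase was called in either fit. The histone gene H2BC14 had 7.11, 7.27 and 7.27 and then 6.97, 6.23 and 5.60 and fell by 1.3 ± 0.31. It was the only 1 called of 11 replication-dependent histones measured (9.09%, against 6.08% of all genes tested), a family of near copies whose signals may mix. The bile acid transporter family member SLC10A5 fell by 1.16 ± 0.21, and the uncharacterized LOC100128340 by 1.60 ± 0.34 and LOC286437 by 1.08 ± 0.18.

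Of 318 microRNA precursors measured, 2 fell without A and none rose (0.629%, against 6.08% of all genes tested). With all arrays 5 were higher and 18 were lower by an unadjusted p under 0.05 in limma (5.97% and 6.13% of all genes tested). The array reads the precursor's locus and not the mature microRNA. The mature forms of the 2 precursors that fell are given with the seed, bases 2 to 8, in capitals, from RefSeq (GRCh38.p14), since the seed sets which messages a microRNA can pair with. MIR4653 lies on the plus strand with its arms at chr7:101159482-101159503 and chr7:101159524-101159546, and MIR4677 on the plus strand at chr1:243346188-243346209 and chr1:243346225-243346246.
hsa-miR-4653-5p: uCUCUGAGcaaggcuuaacacc
hsa-miR-4653-3p: uGGAGUUAaggguugcuuggaga
hsa-miR-4677-5p: uUGUUCUUuggucuuucagcca
hsa-miR-4677-3p: uCUGUGAGaccaaagaacuacu
No seed is shared among the 4. MIR4653 had levels of 5.33, 5.95 and 5.65 at 60 min and of 5.33, 4.14 and 3.98 at 120 min, and fell by 1.59 ± 0.42 (adjusted p = 0.0403 in limma). MIR4677 had 5.24, 5.55 and 5.42 and then 5.03, 3.96 and 4.29, and fell by 1.28 ± 0.28 (adjusted p = 0.017). For both, A at 120 min lay near the earlier arrays and well above B and C.

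Small nucleolar RNAs guide the modification of ribosomal RNA. Of the 58 box C/D members (SNORD) measured, 5 rose without A and none fell (8.62%), and of the 52 box H/ACA members (SNORA) 5 rose and 2 fell (13.5%), against 6.08% of all genes tested. The 2 that fell were SNORA70G, by 1.43 ± 0.37, and SNORA16B, by 1.29 ± 0.35, names that have near copies in the genome. Long noncoding RNAs named LINC had 6 that rose and 2 that fell of 210 (3.81%), and zinc finger genes named ZNF had 9 and 10 of 421 (4.51%). By biotype in the RefSeq table, 6.59% of 13800 protein-coding genes and 3.11% of 1093 long noncoding RNAs were called without A.

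Of the 11 HEK293 markers 10 were measured, and 1 was called without A (10%, against 6.08% of all genes tested). This was the neuronal filament gene INA, which fell by 0.58 ± 0.14, with levels of 8.44, 8.39 and 8.50 and then 8.51, 8.0 and 7.72. VIM, which encodes vimentin, stood between 7.65 and 8.48 on the mock arrays, and HOXD10 between 10.07 and 10.82. The keratin KRT8 did not overlap, with 3.97, 3.95 and 4.14 and then 4.78, 4.55 and 4.46, but its difference of 0.58 ± 0.18 did not pass (adjusted p = 0.266 in limma). Of 10 leukocyte markers 4 were measured, and 1 was called without A (25%, against 6.08% of all genes tested). This was CD68, a lysosomal protein that is also made outside leukocytes, which rose by 0.44 ± 0.11, while SPI1, CD14 and CSF1R were not called. Of 10 fibroblast markers 4, and of 11 intestinal markers 9, were measured and 0 were called. CDX2 and VIL1, an intestinal transcription factor and an actin-bundling protein, did not overlap, with differences of -0.32 ± 0.20 and -0.28 ± 0.14. They were 2 of the 9 measured, and 7.04% of all genes tested were lower in this way. Housekeeping genes had 0 of 8 called, with medians of 0.04 and 0.03. GAPDH differed by -0.07 ± 0.11 and ACTB by 0.18 ± 0.26. Cytosolic ribosomal proteins (15 measured), respiratory chain subunits (18), hypoxia and glycolysis genes (21), NRF2 targets (14) and metal response genes (6) had 0 called in both fits. The groups did not overlap for 3 of the 6 metal response genes, all lower, and the median of that list was -0.23 with all arrays. They did not overlap for 3 of the 15 ribosomal proteins, all higher. Of the 21 hypoxia and glycolysis genes, 3 were higher and 1 was lower in this way (5.62% and 7.04% of all genes tested).

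The change from 60 to 120 min in mock was then set against the mean of the same change with EcN and with ST flagellin. This asks whether the mock cells changed with time as the treated cells did, and the 3 changes share no array. With all 18 arrays no gene was called (0%), the smallest adjusted p was 0.0854, for EGR1 and MYB, and 1108 genes (6.88%) had a higher and 1105 (6.86%) a lower change in mock at an unadjusted p under 0.05. Without mock 120 min A, 1071 genes were called (6.65%), 619 with a higher change in mock (3.84%) and 452 with a lower one (2.81%). Among the 567 genes that rose in mock, 425 were called as higher here too, and among the 412 that fell, 298 were called as lower. Both contrasts hold the same mock arrays, so these shared genes are no second test.

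The 4 immediate-early genes EGR1, EGR3, FOS and FOSB had differences of opposite sign in mock and with flagellin. EGR1 differed by -1.67 ± 0.37 with EcN and by -1.09 ± 0.37 with ST, against 1.47 ± 0.37 in mock, and the difference of 2.86 had an adjusted p of 0.0854 in limma. Without A the difference was 3.23 ± 0.44 (adjusted p = 0.00247). EGR3 had -0.88 ± 0.33 and -1.05 ± 0.33 with the flagellins, and a difference of 2.29 ± 0.43 without A (adjusted p = 0.00805). FOS differed by 2.24 ± 0.51 (adjusted p = 0.0204) and FOSB by 3.62 ± 0.96 (adjusted p = 0.0369) without A, though neither was called within mock. These 4 factors stood higher at 120 than at 60 min in mock and lower at 120 than at 60 min with either flagellin. For EGR1, mock 60 min stood at 8.89 to 9.27, within the lower part of the flagellin range of 8.81 to 11.52.

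The 5 smallest p-values of this contrast without A belonged to TXNIP, DLL1, CORO6, INSIG1 and MAST3. DLL1, a ligand of NOTCH receptors, had mock levels of 5.13, 4.74 and 5.03 and then 4.82, 6.18 and 5.99, and changes of -0.75 ± 0.25 with EcN and -0.41 ± 0.25 with ST. Its change in mock exceeded theirs by 1.70 ± 0.19 (adjusted p = 0.00173 in limma). TXNIP differed by 1.13 ± 0.12, the actin-binding coronin CORO6 by 1.16 ± 0.14, INSIG1 by 1.21 ± 0.15 and the kinase MAST3 by 1.58 ± 0.20. In DLL1, TXNIP and MAST3 the A array at 120 min lay at or below the earlier mock arrays or among them, and in INSIG1 above them. RGS16, which shuts off G protein signalling, had mock levels of 6.86, 6.87 and 6.78 and then 7.38, 8.37 and 7.76, and differed by 1.58 ± 0.23. With the opposite sign, INO80D differed by -1.84 ± 0.27, GALR2 by -1.66 ± 0.24, SMAD7 by -1.31 ± 0.23 and PER2 by -1.09, all called without A. The interferon-stimulated genes IFIT3 and IFI44L were called as well, IFIT3 by 2.40 ± 0.46 and IFI44L by 2.13 ± 0.42, with changes near 0 under flagellin (-0.27 and -0.28 for IFIT3).

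**Figure D5:**
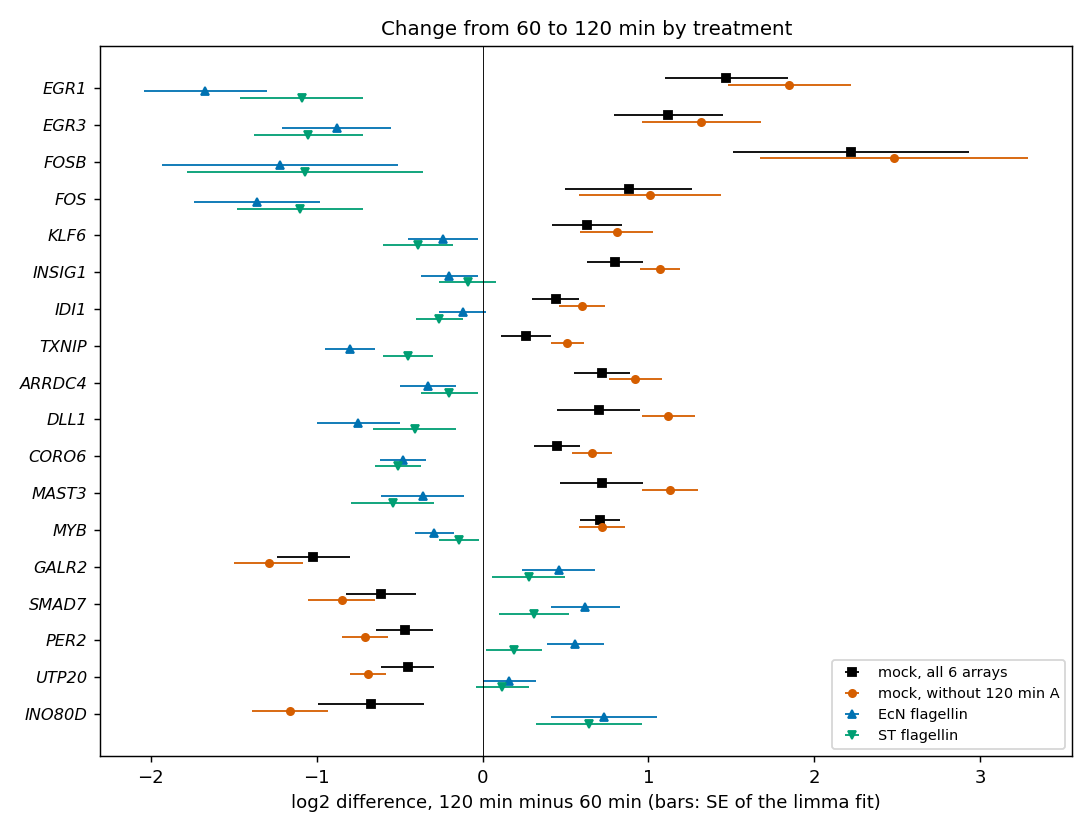
Log2 difference between 120 and 60 min for 18 genes in mock with all 6 arrays (black), in mock without 120 min A (orange), with EcN flagellin (blue) and with ST flagellin (green), with bars of 1 SE of the limma fit. EGR1 lies at 1.47 in mock and at -1.67 and -1.09 with EcN and ST, and INO80D, GALR2, SMAD7 and PER2 run the other way.

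Rows with no gene symbol or with several were tested apart and are given as counts. Of 13332 such rows that passed the same filter, 0 were called with all arrays in limma (at an unadjusted p under 0.05, 428 were higher and 496 lower), and 14 rose and 2 fell without A.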

How the data were processed

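The series' design text names the array as Affymetrix Human Gene 2.1 ST, with 1 array for each of 18 samples. The authors deposited log2 values; the submitters' processing notes name RMA and oligo 1.30.0 for them. The sources used here give no annotation version, further setting or genome build of the array, so no coordinates come from it. Array medians were 2.27 to 2.32, and values were used as deposited. Rows were named through the platform annotation (23871 with 1 symbol, 1842 with several, 27904 not listed there), with 655 symbols updated through the RefSeq table of GRCh38.p14 and 4 kept as the platform gives them. Several rows stood for 399 genes.

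Tests used limma 3.58.1 (R 4.3.3), lmFit with 6 group means on all 18 arrays (12 residual degrees of freedom, 4.20 from eBayes), two-sided, with Benjamini-Hochberg adjustment over the 16111 genes. The same fit was made without mock 120 min A, and for the mock change minus the mean flagellin change. The number of arrays limits the precision. The script was tested on simulated data.

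The rule for named genes took the called ones of highest and of lowest difference (15 each; 10 each without A), filled to 10 a direction by smallest p where fewer were called, the 5 of smallest p in the difference from flagellin, up to 4 members and every called member of each list, and EGR1, EGR3, FOS, NFKBIA, TNFAIP3, CXCL8, TNF, ISG15, TLR5, ACTB and GAPDH. The members, lists and rules were chosen with earlier results of these data known. Lists carry counts and medians only, with no set test. Alternatives were another normalization, filters, rows, samples, eBayes settings, array weights, the replicate letter as a block, and each mock array left out.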

Additional observations from a re-analysis of the deposited data

Results flagged for a closer look

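The change from 60 to 120 min in mock was marked for a closer look because it differed from that with flagellin by a test of the difference itself. Without mock 120 min A, limma called 1071 genes in this contrast, and with all 18 arrays it called none. The 5 genes with the smallest p had a change in mock above the mean change with flagellin, by 1.13 for TXNIP, 1.7 for DLL1, 1.16 for CORO6, 1.21 for INSIG1 and 1.58 for MAST3 on the log2 scale. For each of these, the mock change without A was above 0 and both flagellin changes were below 0, with -0.80 and -0.45 for TXNIP, -0.75 and -0.41 for DLL1, -0.48 and -0.51 for CORO6, -0.20 and -0.09 for INSIG1, and -0.36 and -0.54 for MAST3 (EcN, then ST). Leaving out 1 array more gave 436 to 1104 genes called.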

How the results depend on the processing

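In the 3 against 3 comparison the count of called genes stayed at 0 under centring, renewed quantile normalization, both filters, all rows, mock arrays alone, array weights and the replicate block, was 1 under eBayes with trend and robust, and ran from 0 to 979 with 1 array left out (1 without mock 60 min A, 979 without mock 120 min A); called list members ran from 0 to 36. Without A, the 979 became 330 under array weights and 65 with mock arrays alone, and 220 to 924 with 1 more array left out; the 36 list members became 13 and 9, and 9 to 33. The difference from flagellin went from 0 to 27 under array weights, 1 under the replicate block and 5 without the flagellin arrays lettered C, a choice made after seeing the data, and from 0 to 1071 with 1 array left out. Its 1071 without A became 590 under array weights and 525 without the flagellin C arrays, and 436 to 1104 with 1 more left out. The cause was not tested. The other settings moved these counts by at most 1.5 times, the replicate block among them, with 1204 called without A. Over the mock arrays as labelled, the same-letter deviations correlate at -0.219, -0.047 and -0.102, and those of different letters at -0.097 to 0.193. These values cannot decide whether the letters pair the samples, since the labels of mock 120 min A and C are in doubt. Among the named genes with all arrays, 1 sign turned with normalization, that of CD14, from 0 or below to 0.01 under centring and 0.00 under renewed quantile normalization. With 1 array left out, the sign turned among the named genes for CD14 (-0.05 to 0.05), COL1A1 (-0.10 to 0.20), CSF1R (-0.32 to 0.28), CXCL8 (-0.04 to 2.59), GAPDH (-0.14 to 0.01), NFKBIA (-0.37 to 0.94), SPI1 (-0.09 to 0.01), THY1 (-0.18 to 0.08), TNF (-0.10 to 1.68), TNFAIP3 (-0.15 to 1.35) and VIM (-0.39 to 0.02).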
